A study of Mus musculus with 36 samples.

Results

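Aminoacyl-tRNA synthetases are the enzymes that load each amino acid onto its transfer RNA, the step that supplies ribosomes with building blocks. Their 36 genes were taken from the array by symbol, out of 37074 gene names, and comprised 20 enzymes of the cytosol and 16 of the mitochondrion, the latter named with a final 2. Each gene was represented by its brightest probe over all arrays, and all 36 were among the 24102 genes tested.

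Liver RNA of 36 male C57Bl/6J mice was hybridised to 36 one-colour Agilent arrays, 6 for each of 6 groups. AAKO is the label of mice that lack adipose triglyceride lipase (ATGL, the product of Pnpla2, which starts the breakdown of stored fat) in white adipose tissue, and CTRL that of their controls. In each genotype, 6 mice were fed, 6 were fasted for 24 h, and 6 were fed and received CL316243, an agonist of the beta3-adrenergic receptor that drives fat breakdown in adipocytes, by gavage at 3 mg/kg at Zeitgeber time 10. Livers of every group were taken at Zeitgeber time 16, which falls in the night, when mice normally feed.

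The 2 fed groups belong to experiment 2 and the 4 other groups to experiment 1, and a gavage is recorded only for the CL316243 groups. Contrasts with the fed groups therefore also compare experiments, and these cannot be told apart. The deletion is in adipose tissue, so liver RNA does not check it. The promoter that removes the gene and the age of the mice are not given in the sources used here. Nothing in the labels says whether replicates of a group were littermates.

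In the cytosol of animal cells, 8 of the enzymes in the list (Dars, Eprs, Iars, Kars, Lars, Mars, Qars and Rars) assemble with 3 scaffold proteins into the multisynthetase complex. Several cytosolic synthetase genes are known targets of ATF4, a transcription factor whose translation rises when the initiation factor eIF2 is phosphorylated, as happens when uncharged tRNA accumulates. Mitochondria use a separate set of nuclear-encoded enzymes to translate the proteins of the respiratory chain that mitochondrial DNA encodes, although Gars and Kars each supply both compartments from 1 gene.

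Promoter sequence was looked at because several members moved together in some contrasts. RefSeq windows on build GRCm38.p6 were found for 27 of the 36 genes, and the 250 bases before each start were searched on both strands. TGATGNAA, a common core of elements bound by ATF4 with C/EBP proteins, occurred in 3 of 13 cytosolic promoters (Aars, Gars and Tars), in 0 of 14 mitochondrial promoters, and in 3.45% of 32851 mouse promoters. The 80-base stretches that hold it are printed 5′ to 3′ on the strand of the gene, with the match, which lies on the opposite strand, in capitals. The Aars stretch lies at chr8:111033694-111033773 (plus strand). The Gars stretch lies at chr6:55037921-55038000 (plus strand) and the Tars stretch at chr15:11399659-11399738 (minus strand), both ending 1 base before the start.
Aars: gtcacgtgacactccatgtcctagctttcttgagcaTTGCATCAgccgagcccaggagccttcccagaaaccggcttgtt
Gars: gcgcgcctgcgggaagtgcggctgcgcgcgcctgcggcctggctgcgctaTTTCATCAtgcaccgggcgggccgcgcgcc
Tars: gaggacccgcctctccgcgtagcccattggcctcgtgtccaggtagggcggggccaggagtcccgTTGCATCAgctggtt

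The E-box CACGTG occurred in 3 of 13 cytosolic promoters (Aars, Farsb and Iars), in 0 of 14 mitochondrial promoters and in 6.02% of all promoters. The NRF1 motif, a 10-base palindrome, was in none of the 27 and in 0.782% of all. These matches are letters in a window and were not measured as binding sites. Of the 3 genes with TGATGNAA, Aars was higher in AAKO than in CTRL liver after CL316243 (0.34), whereas Gars (0.07) and Tars (-0.02) did not pass the test. The call of Aars was lost as a mean over its probes and within each wash batch alone. Between the fasted genotypes Gars was higher in AAKO, Tars was lower and Aars was not called.

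Signals of the members were above background on nearly all arrays, though Mars2 lay near the background. The array's own call placed 34 members well above background on all 36 arrays, Mars2 on 34 arrays, and Gars on 35, its remaining spot being marked as an outlier and dropped. The 75th percentile of signal, to which each array was scaled, ranged from 288 to 413, and 58.5% to 65.7% of probes were well above background. Levels below are log2 intensities relative to that percentile and are not compared between genes, since probes differ in brightness. Differences are log2 fold changes ± SE from 1 limma fit over all 36 arrays with wash batch as a factor, and a gene is said to have changed where its Benjamini-Hochberg adjusted p over all tested genes was under 0.05.

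One library stood apart for several members. CTRL fasted replicate 2 was the lowest of its group for Dars (-1.23), Lars2 (0.39), Wars2 (-2.41) and Lars (3.19), and the highest for Mars2 (-2.72), Ears2 (1.95) and Eprs (4.29), each on the side of the AAKO fasted arrays. Without it the count of members that differed between the genotypes after fasting stayed at 23, with 8 higher and 15 lower. The rise of Mars2 from fed to fasted CTRL liver lost its call without it (0.57), as did that of Gars (0.18) and, between fasted and CL316243-treated CTRL mice, the falls of Kars (-0.13) and Wars (-0.27).

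Defining hepatocyte genes (Alb, Apoa1, Ttr, Tat and Cps1) were well above background in every group, with summed log2 levels of 10.8 to 11.2. Single genes among them still differed. All 5 did between the fasted genotypes (2 higher and 3 lower in AAKO, -0.47 to 1.14), where 49.3% of all genes were called. After CL316243, 2 were higher in AAKO (up to 1.26), where 24.8% of all genes were called. Of the 5 neutrophil markers, 4 were higher in AAKO than CTRL fasted liver (median 3.38), with summed levels of 2.60 to 6.41 against -1.28 to 5.77. After CL316243, 0 of the 5 neutrophil markers passed the test (median 1.71), with summed levels of 1.00 to 2.87 in AAKO and -1.34 to 1.87 in CTRL mice. Of the 5 macrophage and Kupffer cell markers, 0 differed between the genotypes in any state, and 4 were lower after CL316243 than in fed mice of either genotype. The share of all genes lower in those treatment contrasts was 12.9% in CTRL and 15.6% in AAKO mice. In bulk tissue, fewer cells of a type and less RNA per cell cannot be told apart, and the part of these other cells in the results was not tested.

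In fed mice the synthetases did not separate the genotypes. The test called 0 of the 36 members, against 0.0788% of all genes (0.0415% higher and 0.0373% lower), and 3 members had an unadjusted p under 0.05. The fitted differences ran from -0.35 (Mars2) to 0.19 (Cars), with medians of -0.03 over the cytosolic and -0.08 over the mitochondrial enzymes.

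After CL316243, cytosolic synthetases were higher in AAKO than in CTRL liver. Of the 20 cytosolic genes, 12 were higher, 0 lower and 8 did not pass the test, with a median difference of 0.31. Of the 16 mitochondrial genes, Cars2 and Rars2 were higher, Vars2 was lower, and the median was -0.02. Among all genes 24.8% were called in this contrast, 13.5% of them as higher and 11.3% as lower out of all tested, with a median of 0.03, so that the share of cytosolic members called higher lay above the background. The count of 12 was the same under each of the 5 scalings run, although the share of higher genes among all genes called went from 54.4% to 42.3% with the authors' values, where 1 cytosolic member was also lower.

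The same pattern was visible on single arrays. For each array, the deviation of every cytosolic member from its CTRL fed mean was taken and the median kept. This median was 0.23 on the lowest, 0.39 on the median and 0.52 on the highest AAKO array after CL316243. In the CTRL mice given CL316243 it ran from -0.12 through 0.02 to 0.11, so the groups did not overlap. The mitochondrial median ran from -0.11 to 0.13 in AAKO and from -0.05 to 0.06 in CTRL mice given CL316243, with full overlap.

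**Figure D1:**
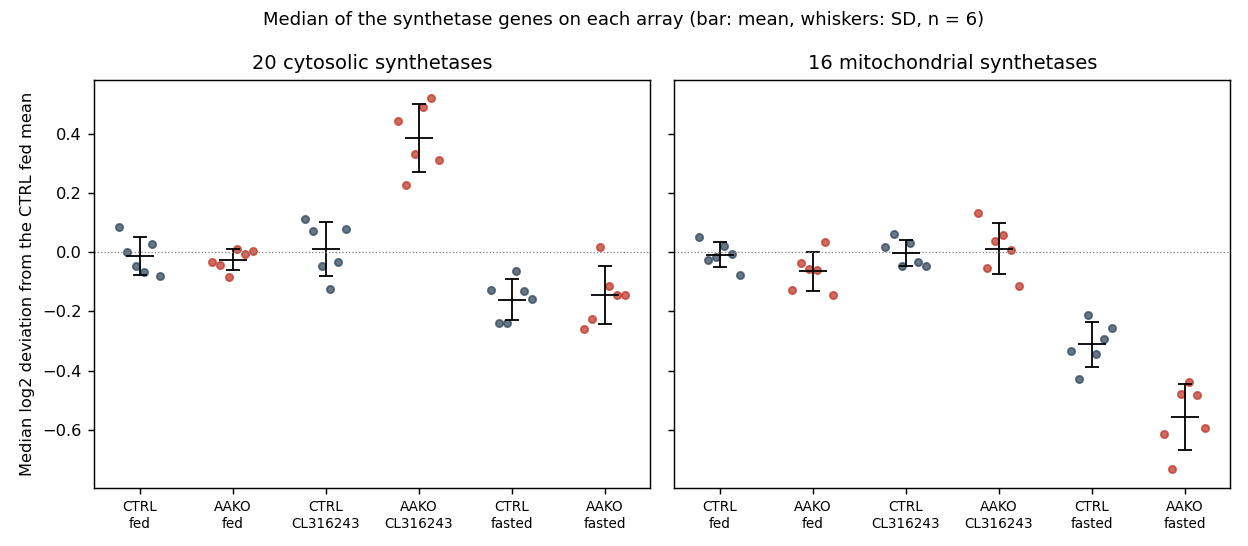
Median log2 deviation of the 20 cytosolic (left) and 16 mitochondrial (right) synthetases from their CTRL fed mean, on each of 36 arrays, by group; points are arrays, bars the mean and whiskers the SD (n = 6). The cytosolic median of the 6 AAKO arrays after CL316243 lies between 0.23 and 0.52, above all others, and the mitochondrial median of the fasted groups lies below 0, between -0.73 and -0.21.

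Wars, which charges tRNA with tryptophan and is known as an interferon-induced gene, had the largest difference. Its probe lies on chromosome 12 at 110098245 to 110098304 of mm9, the build of the array files. Its level was 3.67, 4.15 and 4.44 (lowest, median and highest array) in AAKO mice after CL316243 and 2.97, 3.10 and 3.23 in CTRL mice. Every AAKO array was above every CTRL array, a difference of 1.01 ± 0.11 (2.01-fold, adjusted p = 2.12e-08). By their medians the fed groups lay between or above CTRL mice given CL316243, at 3.14 to 3.68 in AAKO and 3.18 to 3.74 in CTRL mice, and the fasted groups were lowest, at 2.84 to 3.18 and 2.70 to 3.00.

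Qars, the glutamine enzyme of the complex (chromosome 9, 108417534 to 108418156), was the most evenly separated. It measured 3.95, 4.06 and 4.29 in AAKO and 3.40, 3.51 and 3.58 in CTRL mice after CL316243, a difference of 0.59 ± 0.06 (adjusted p = 6.86e-09). No array of the 5 other groups exceeded 3.63, so Qars was high in 1 group only.

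Eprs joins the glutamate and the proline enzyme in 1 protein, and its gene lies on chromosome 1 (probe at 187252009 to 187252068). After CL316243 it measured 4.62, 4.81 and 4.97 in AAKO against 4.05, 4.26 and 4.38 in CTRL mice, a difference of 0.59 ± 0.08 (adjusted p = 2.42e-06). Rars, the arginine enzyme (chromosome 11, 35621903 to 35621962), measured 2.28, 2.51 and 2.73 against 1.79, 1.96 and 2.03, a difference of 0.59 ± 0.08 (adjusted p = 1.85e-06). Neither gene overlapped between the genotypes.

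The other 8 cytosolic members higher in AAKO were Hars (0.57), Nars (0.51), Farsa (0.50), Yars (0.48), Aars (0.34), Farsb (0.34), Lars (0.29) and Kars (0.19). They include both subunits of the phenylalanine enzyme, Farsa and Farsb. Of the 8 cytosolic genes that did not pass, 5 had positive values up to 0.18 (Iars), while Dars stood at -0.03, Tars at -0.02 and Cars at -0.26. The 12 higher in AAKO were spread over the complex (5 of 8 members) and outside it (7 of 12).

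Groups did not overlap for 9 members, all higher in AAKO (8 cytosolic and Cars2), against 6.04% of all genes higher and 5.42% lower without overlap. Other probes spoke for the same direction: 12 of the 14 higher members had further tested probes. Of these 24 probes, 17 were called higher in AAKO, 0 lower and 22 had a positive sign. Within wash batch 1 alone, 8 cytosolic members were higher in AAKO and the cytosolic median was 0.30, where 12.5% of all genes were called. Within wash batch 2 alone, with 2 AAKO and 3 CTRL arrays, 6 were higher with a median of 0.29, where 6.54% of all genes were called. Rars2 (0.26) is the least secure of the calls, as 10 of 14 other settings and 10 of 12 fits without 1 array lost it.

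**Figure D2:**
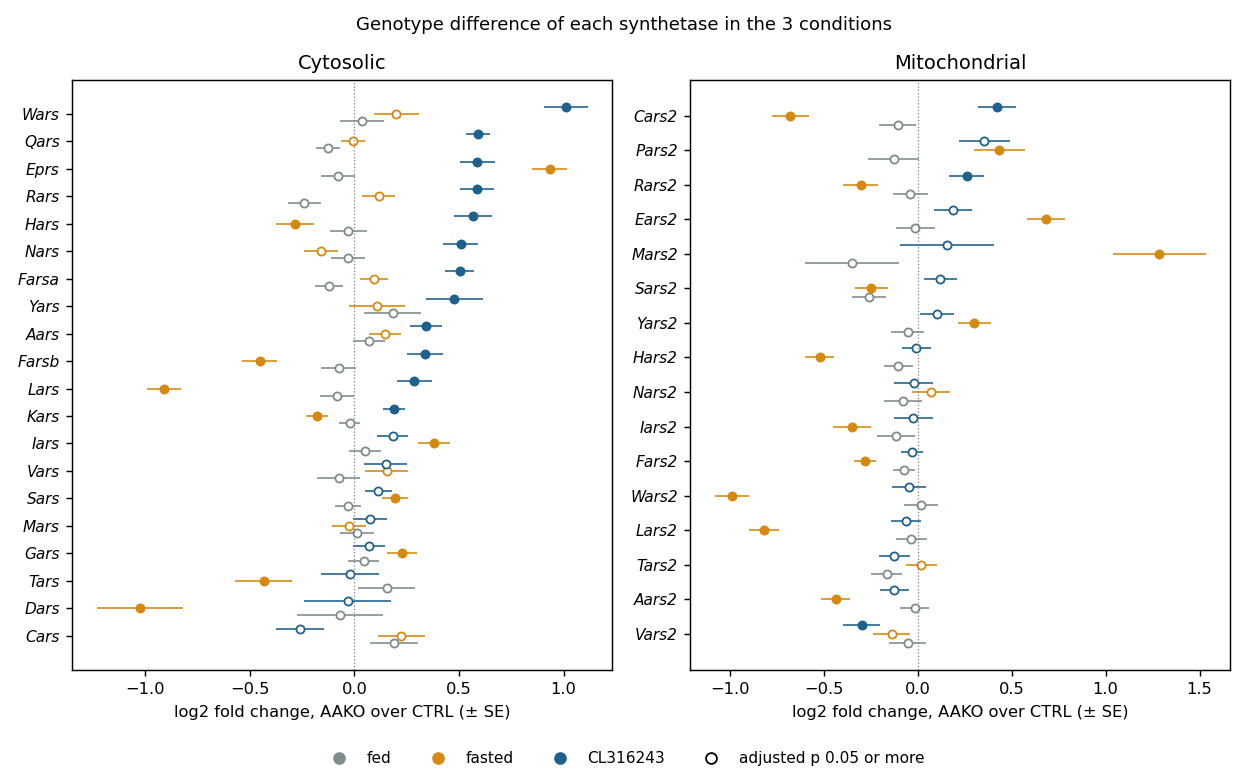
Log2 fold change ± SE of AAKO over CTRL liver for each cytosolic (left) and mitochondrial (right) synthetase in fed, fasted and CL316243-treated mice, ordered by the CL316243 value; filled points passed an adjusted p of 0.05. After CL316243 the cytosolic values run from -0.26 (Cars) to 1.01 (Wars) with 12 filled, while in fed mice 0 of 36 are filled.

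**Figure D3:**
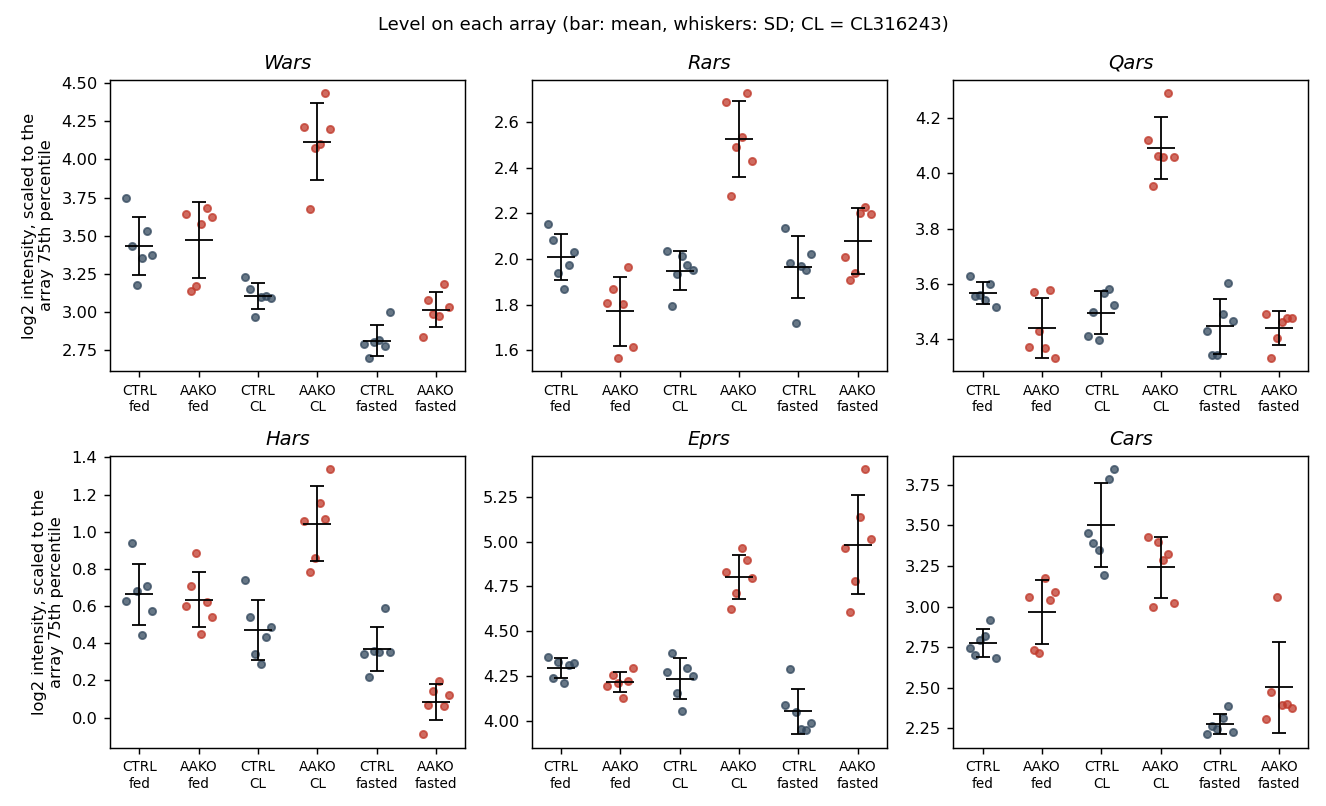
Level of 6 cytosolic synthetases on each array, as log2 intensity relative to the array's 75th percentile; points are arrays, bars the mean and whiskers the SD (n = 6). Wars, Rars, Qars and Hars are highest in AAKO mice after CL316243, Eprs is high in AAKO mice in both challenges, and Cars is highest in both groups given CL316243.

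The interaction of genotype with CL316243 asks whether the genotype difference changed from the fed to the treated state. It was called for 11 members, all positive, against 10.9% of all genes (6.39% positive and 4.53% negative). They were 9 cytosolic genes (Wars, Rars, Qars, Eprs, Farsa, Hars, Nars, Farsb and Lars) and the mitochondrial Cars2 and Sars2. Wars had the largest term (0.97 ± 0.15, adjusted p = 4.01e-05), followed by Rars (0.82 ± 0.11, adjusted p = 9.58e-06). The terms of Sars2 (0.38) and Lars (0.37) were the least secure, lost in 17 and 13 of 24 fits without 1 array. In Rars part of the term came from the fed mice, where AAKO arrays stood at 1.56, 1.80 and 1.97 and CTRL arrays at 1.87, 2.00 and 2.15, a difference of -0.24 that did not pass the test. Within wash batch 1 alone 2 members passed and within wash batch 2 alone, which holds 2 arrays of AAKO mice given CL316243, 3 passed, against 1.93% and 1.97% of all genes in those fits, and the cytosolic median was 0.33 and 0.26 against 0.29 over all arrays.

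In AAKO mice, CL316243 against the fed state raised 17 members and lowered 0, against 31.4% of all genes called (15.7% higher and 15.6% lower). Markers of other cells fell in this contrast, 4 of 5 macrophage and Kupffer cell, 3 of 5 endothelial, 3 of 5 stellate cell and 3 of 4 red cell genes; their part was not tested. The raised genes were 14 of 20 cytosolic and 3 of 16 mitochondrial enzymes (Pars2, Rars2 and Sars2), and all 20 cytosolic differences were positive, with a median of 0.36. Pars2, the mitochondrial proline enzyme (chromosome 4, 106327826 to 106327885), rose by 0.87 ± 0.14 (adjusted p = 1.10e-05), from -0.92, -0.55 and -0.26 to -0.14, 0.24 and 0.92. Rars rose by 0.77 ± 0.08 (adjusted p = 1.27e-08), and for both genes every treated array was above every fed array. The states did not overlap for 11 members, all higher, against 7.55% of all genes higher and 7.56% lower.

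In CTRL mice the same contrast gave 6 higher and 3 lower members, against 23.3% of all genes called (10.4% higher and 12.9% lower), with a cytosolic median of -0.02. Both contrasts with the fed state also compare experiment 1 with experiment 2. Cars, the cysteine enzyme (chromosome 7, 150743615 to 150743674), rose by 0.73 ± 0.11 (adjusted p = 2.22e-05), from 2.68, 2.77 and 2.92 to 3.20, 3.42 and 3.85 with no overlap. Tars rose by 0.39 ± 0.14 (adjusted p = 0.0373), with 3.88, 4.02 and 4.48 in fed and 4.35, 4.53 and 4.59 in treated mice. Wars fell by 0.33 (adjusted p = 0.0228) and Cars2 by 0.29 (adjusted p = 0.0339), both with overlapping groups. Cars and 1 other member were higher without overlap and 1 was lower, against 5.59% and 6.71% of all genes. The count is small and unsteady: without CTRL fed replicate 2 it was 5 in place of 9. Within wash batches 1 and 2 alone it was 1 and 2, against 8.78% and 6.62% of all genes. The call of Tars was lost in 8 of 12 fits without 1 array, that of Cars2 in 7 and that of Wars in 2.

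Fasting gave a mixed picture between the genotypes. In fasted AAKO against fasted CTRL liver, 23 of the 36 members differed, 8 higher and 15 lower, against 49.3% of all genes (21.3% higher and 28.1% lower). The cytosolic enzymes split into 4 higher, 6 lower and 10 not called (median 0.10), and the mitochondrial enzymes into 4 higher, 9 lower and 3 not called (median -0.26). The share of members called was somewhat above that of all genes, most clearly for the mitochondrial members called lower, and the median over all genes was -0.04. The direction of the median over all 36 members depended on the scaling (-0.02, or 0.02 when arrays were scaled to their medians), so only the mitochondrial median, negative under each of the 5 scalings run, is given a direction.

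Mars2, the mitochondrial methionine enzyme (chromosome 1, 55295642 to 55295701), was higher in AAKO by the most. It measured -2.71, -2.45 and -1.93 in fasted AAKO and -4.38, -3.77 and -2.72 in fasted CTRL mice, a difference of 1.29 ± 0.25 (2.44-fold, adjusted p = 6.36e-05). With normexp background correction the difference of Mars2 was 0.52, still called. The groups touched without overlapping, and the highest CTRL array was replicate 2. In the fed and CL316243 groups Mars2 was dimmer, with medians from -4.77 to -4.32.

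Eprs followed, at 4.60, 4.99 and 5.40 in fasted AAKO against 3.94, 4.02 and 4.29 in fasted CTRL mice. The difference was 0.93 ± 0.08 (adjusted p = 6.96e-11) with no overlap. Eprs was the only member called higher in AAKO both after fasting and after CL316243. The remaining higher members were Ears2 (0.68, with its other probes at 0.72, 0.08 and -0.28), Pars2 (0.43), Iars (0.38), Yars2 (0.30), Gars (0.23, over 35 arrays) and Sars (0.19).

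Dars, the cytosolic aspartate enzyme, was lower in AAKO by the most. Its representative probe matches an Ensembl transcript (ENSMUST00000186398; chromosome 1, 130271530 to 130271589), and it measured -2.04, -1.27 and -0.32 in fasted AAKO against -1.23, -0.07 and 0.28 in fasted CTRL mice. The groups overlapped, with a difference of -1.02 ± 0.21 (adjusted p = 0.000108), and the second probe of Dars gave -0.55, also called.

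Wars2, the mitochondrial tryptophan enzyme (chromosome 3, 99023010 to 99023069), measured -3.19, -3.04 and -2.72 in AAKO against -2.41, -1.96 and -1.74 in CTRL mice after fasting. The difference was -0.99 ± 0.09 (adjusted p = 1.63e-10) without overlap, its second probe gave -0.69, and normexp gave -0.55, all called. Lars, the leucine enzyme of the complex (chromosome 18), measured 2.34, 2.51 and 2.55 against 3.19, 3.41 and 3.48, a difference of -0.91 ± 0.08. Lars2, its mitochondrial counterpart, measured -0.04, 0.09 and 0.28 against 0.39, 0.98 and 1.16, a difference of -0.82 ± 0.08, while its second probe was not called (-0.17).

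Without overlap between the groups, 4 members were higher and 8 lower, against 9.36% and 11.9% of all genes.

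The further members lower in AAKO were Cars2 (-0.68), Hars2 (-0.52), Farsb (-0.45), Aars2 (-0.44), Tars (-0.43), Iars2 (-0.35), Rars2 (-0.30), Hars (-0.29), Fars2 (-0.28), Sars2 (-0.25) and Kars (-0.18). Of these Sars2 was the least secure, with its call lost in 3 of 14 other settings and 4 of 12 fits without 1 array. On single arrays the mitochondrial median was -0.73, -0.54 and -0.44 in AAKO against -0.43, -0.31 and -0.21 in CTRL fasted mice. Every AAKO array was lower, although the nearest arrays differ by 0.01. Within wash batch 1 alone 19 members differed, with a mitochondrial median of -0.36, and within wash batch 2 alone 11, with -0.14. In those fits 36.6% and 32.2% of all genes were called, so that in batch 2 the members' count was no higher than the background.

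**Figure D4:**
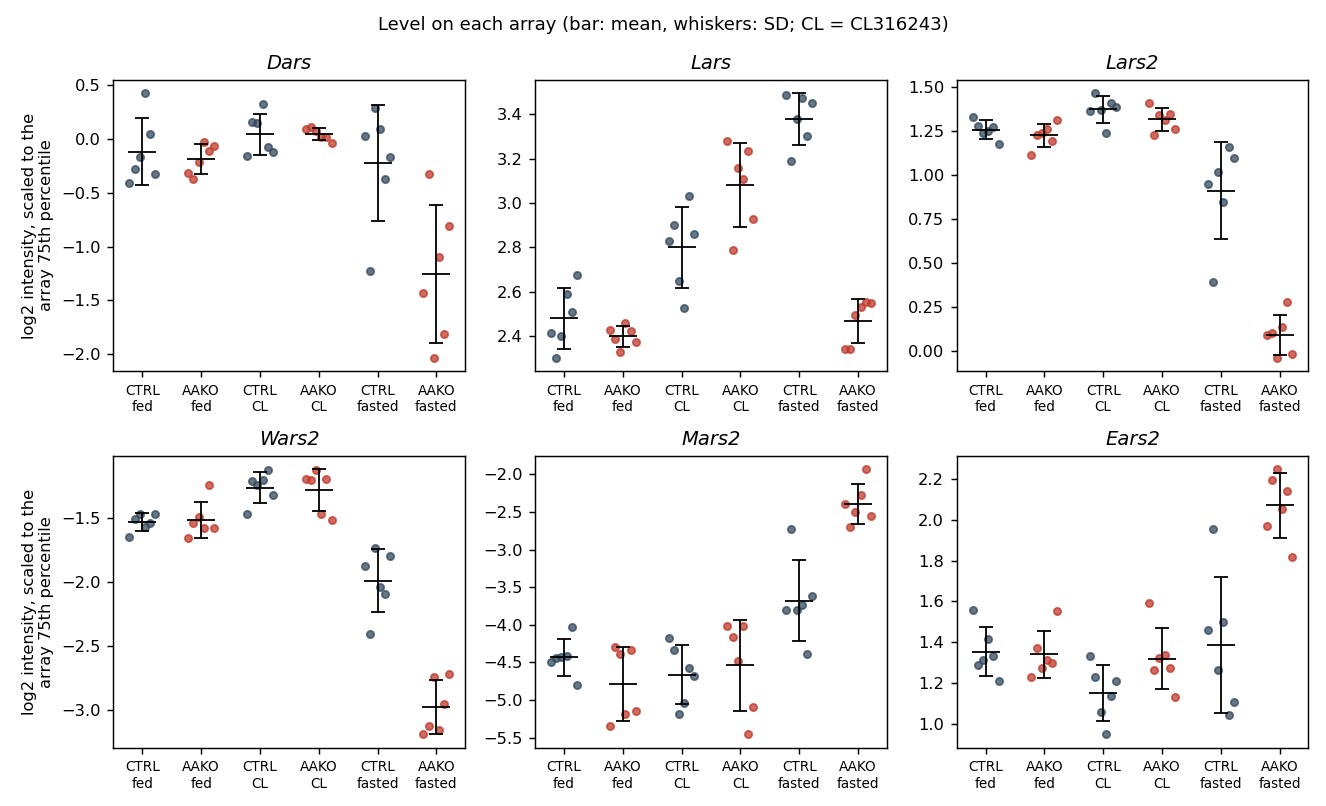
Level of 6 synthetases on each array, as log2 intensity relative to the array's 75th percentile; points are arrays, bars the mean and whiskers the SD (n = 6). In fasted AAKO mice Dars, Lars2 and Wars2 are lowest of the 6 groups by mean and Mars2 and Ears2 highest, while Lars is raised in fasted CTRL mice (3.19 to 3.48) and not in fasted AAKO mice (2.34 to 2.55).

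The interaction of genotype with fasting was called for 16 members (7 positive and 9 negative), against 33.9% of all genes (14.5% positive and 19.4% negative). Mars2 had the largest positive term (1.64 ± 0.35, adjusted p = 0.000462; 0.59 with normexp) and Eprs the next (1.01 ± 0.12, adjusted p = 7.00e-08). Wars2 had the largest negative term (-1.01 ± 0.13, adjusted p = 3.76e-07; -0.54 with normexp), followed by Dars (-0.96 ± 0.29, adjusted p = 0.0106). The term of Dars did not pass within either wash batch. Lars stood at -0.83, and its levels show the form of the term: fed mice of both genotypes lay at 2.30 to 2.68, and only the fasted CTRL mice rose from there among the fed and fasted groups.

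In CTRL mice, fasting against the fed state changed 25 members, 5 higher and 20 lower, against 43.3% of all genes (20.9% higher and 22.4% lower). The lower members were 9 cytosolic and 11 mitochondrial, with medians of -0.14 and -0.37. Lars rose by 0.90 ± 0.08 (adjusted p = 2.84e-10), from 2.30, 2.46 and 2.68 to 3.19, 3.41 and 3.48, with no overlap. Mars2 rose by 0.75 ± 0.25 (adjusted p = 0.0136), with overlap, and was not called with normexp (0.15). Wars fell by 0.62 ± 0.11 (adjusted p = 1.29e-05), from 3.18, 3.40 and 3.74 to 2.70, 2.80 and 3.00. Nars2, the mitochondrial asparagine enzyme (chromosome 7, 104211359 to 104211418), fell by 0.61 ± 0.10 (adjusted p = 9.78e-06), from -0.54, -0.46 and -0.08 to -1.23, -1.02 and -0.89. Without overlap, 2 members were higher and 15 lower, against 10.7% and 11.9% of all genes.

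In AAKO mice, 29 members changed with fasting, 8 higher and 21 lower, against 63.5% of all genes (27.8% higher and 35.7% lower). Mars2 rose by 2.39 ± 0.25 (5.24-fold, adjusted p = 5.69e-10), from -5.35, -4.77 and -4.30 in fed mice. The size of that rise depends on the background correction, being 0.74 with normexp and 1.46 with the authors' values, both called. Pars2 rose by 1.06 ± 0.14 (adjusted p = 4.39e-08) to 0.34, 0.44 and 0.73, or by 1.65 as the mean over its probes. Wars2 fell by 1.46 ± 0.09 (adjusted p = 6.50e-15), from -1.66, -1.56 and -1.25, and Lars2 by 1.13 ± 0.08 (adjusted p = 1.36e-13), from 1.11, 1.23 and 1.31. None of these 4 genes overlapped between fed and fasted AAKO mice, as for 20 members in all (6 higher and 14 lower), against 42.6% of all genes (19% higher and 23.6% lower). Of the neutrophil markers, 4 of 5 rose here too (median 3.27), while 4 of 5 macrophage and Kupffer cell genes (median -0.83), 3 of 4 red cell genes (-1.08) and 3 of 5 cholangiocyte genes (-0.69) fell. Both fasting contrasts also compare experiment 1 with experiment 2.

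Fasted and CL316243-treated mice come from the same experiment, though a gavage is recorded only for the latter. In CTRL mice, 19 members differed between these states, 2 higher and 17 lower in the fasted, against 36.8% of all genes (19.2% higher and 17.6% lower). Cars was lower by the most (-1.23 ± 0.11, adjusted p = 6.75e-10), at 2.22, 2.26 and 2.39 in fasted against 3.20, 3.42 and 3.85 in treated mice. Wars2 (-0.73 ± 0.09, adjusted p = 1.30e-07) measured -1.47, -1.23 and -1.13 in treated mice, and was at -0.32 as a mean over its probes. Vars2, the mitochondrial valine enzyme (-0.71 ± 0.10, adjusted p = 8.42e-07), measured -1.68, -1.43 and -1.25 in fasted against -0.83, -0.75 and -0.58 in treated mice. None of these 3 overlapped, and in all 1 member was higher and 11 lower without overlap, against 8.9% and 8.87% of all genes. Mars2 was higher in the fasted mice (0.99 ± 0.25, adjusted p = 0.00191), with -5.18, -4.63 and -4.18 in treated mice some overlap and a value of 0.20 with normexp, and Lars was the other higher member (0.58).

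In AAKO mice 32 members differed in the same contrast, 4 higher and 28 lower in the fasted. Among all genes 59.9% were called (26.1% higher and 33.8% lower). Leaving out 1 array gave 29 to 31 members. The calls of Gars, Sars and Tars were lost in 8, 7 and 4 of 12 such fits. Neutrophil markers (4 of 5, median 2.98) and endothelial markers (3 of 5) were higher in the same contrast, and their part was not tested. The cytosolic median was -0.62 and the mitochondrial median -0.57, where the median over all genes was -0.08 and 0.05 with the authors' values. Wars2 (-1.67 ± 0.09, adjusted p = 9.79e-16) and Dars (-1.26 ± 0.21, adjusted p = 3.67e-06) were lowest. Mars2 (2.12 ± 0.25, adjusted p = 9.62e-09) and Ears2 (0.73 ± 0.10, adjusted p = 2.80e-07) were highest, though with normexp Mars2 was at 0.63 and Wars2 at -1.03, and as a mean over its probes Ears2 was at 0.07 and not called. Without overlap, 2 members (Mars2 and Ears2) were higher and 24 lower, Wars2 and Dars among them, against 16.4% and 20.9% of all genes. Ears2 measured 1.82, 2.10 and 2.25 in fasted against 1.13, 1.30 and 1.59 in treated mice.

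The genotype difference itself was compared between fasting and CL316243, over 4 groups of mice that share no control. It differed for 22 members, 4 with a higher value in the fasted and 18 with a lower, against 32.3% of all genes (12.7% and 19.7%). By their own tests, 6 members were lower in AAKO when fasted and higher after CL316243 (Farsb, Hars, Kars, Lars, Cars2 and Rars2), and 0 showed the reverse. The share of all genes with such opposite calls was not computed, so this count has no background to be read against. After CL316243 the call of Rars2 was lost in 10 of 14 other settings. Those of Kars, Lars and Cars2 were lost within each wash batch alone. Lars had the largest difference (-1.20 ± 0.12, adjusted p = 1.16e-08), and Cars2, the mitochondrial cysteine enzyme (chromosome 8, 11516152 to 11516211), the next (-1.10 ± 0.14, adjusted p = 5.24e-07). Cars2 measured -0.78, -0.63 and -0.35 in AAKO against -0.15, 0.05 and 0.43 in CTRL fasted mice, and 0.35, 0.63 and 0.82 against 0.09, 0.18 and 0.33 after CL316243. Mars2 (1.13 ± 0.35, adjusted p = 0.0131), Ears2 (0.49 ± 0.14, adjusted p = 0.00863) and Cars (0.49) led the other direction, with Mars2 at 0.43 with normexp and Ears2 at 0.18 and not called as a mean over its probes.

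Some genes have probes that went opposite ways, and a direction for them holds for the representative probe only. In fasted against fed CTRL liver, the representative probes of Aars (-0.29), Eprs (-0.24) and Farsa (-0.49) fell while a probe matching an Ensembl transcript of each rose (2.28, 1.73 and 0.36). Aars and Farsa also disagreed in fasted against fed AAKO liver (-0.21 against 1.54, and -0.27 against 0.92), as did Iars2 (-0.40 against 0.42). Ears2 is the least settled member: its representative probe rose by 0.73 with fasting in AAKO mice, while 2 other probes of the same RefSeq transcript fell by 1.18 and by 0.81. Aars disagreed again between fasted and CL316243-treated mice of both genotypes, and Ears2 in AAKO mice. The probes of Kars and Hars2, of 60 bases each, share runs of at least 20 bases with a probe of 1 other gene, lying within bases 14 to 58 in Kars and 15 to 34 in Hars2, so both are uncertain. Where probes fall among exons and untranslated regions was not analysed here.

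Of the 3 scaffolds of the multisynthetase complex, 1 was called in each genotype contrast of challenged mice, against 49.3% of all genes after fasting and 24.8% after CL316243. After CL316243, Aimp1, which anchors the arginine enzyme, was higher in AAKO mice (0.39 ± 0.06), while Aimp2 (0.12) and Eef1e1 (0.18) did not pass. After fasting, Aimp1 was lower in AAKO mice (-0.17 ± 0.06), and Aimp2 (-0.09) and Eef1e1 (-0.12) did not pass. All 3 differed between the fed and the fasted state, 1 higher and 2 lower in either genotype (-0.45 to 0.36 in CTRL and -0.43 to 0.25 in AAKO mice). In these contrasts 43.3% of all genes were called in CTRL and 63.5% in AAKO mice. All 3 were also lower in fasted than in CL316243-treated AAKO mice (-0.42 to -0.21), where 59.9% of all genes were called (33.8% lower). Of the 8 enzymes of the complex, 5 were higher in AAKO than in CTRL mice after CL316243. Between the fasted genotypes, 2 were higher and 3 lower in AAKO mice (Eprs and Iars against Dars, Lars and Kars).

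Other genes of tRNA charging were split in direction. Of the 11 tested, 2 were higher and 4 lower in AAKO mice after fasting, near the shares of all genes (21.3% and 28.1%). After CL316243 2 were higher and 4 lower, where 13.5% and 11.3% of all genes were. Yrdc, which makes a modified base that tRNAs need for accurate reading, was higher in both (1.06 ± 0.13 and 0.91 ± 0.13), as was Trnt1, which adds the CCA end to which amino acids are joined (0.66 and 0.38). Mammalian mitochondria make glutaminyl-tRNA in 2 steps, with Ears2 loading glutamate and the amidotransferase of Qrsl1, Gatb and Gatc converting it. All 3 amidotransferase genes, named here after their values were seen, were lower in fasted AAKO than in fasted CTRL mice (-0.82, -0.55 and -0.60).

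Elongation factors carry charged tRNA to the ribosome or move the ribosome along. Of the 9 tested, 8 were lower in AAKO than CTRL mice after fasting and 0 higher, with a median of -0.27, against 28.1% of all genes lower and 21.3% higher. Tsfm, which recycles the mitochondrial factor Tufm, was lower by the most (-0.73 ± 0.10). After CL316243, Eef1g alone was called (0.17), and the median of the list was 0.07, or -0.01 with quantile normalization, where 0 of the 9 passed.

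Genes that control eIF2 were higher in AAKO mice after CL316243, 8 of 12 with 0 lower and a median of 0.36, against 13.5% of all genes higher. They included all 5 subunits of eIF2B, the exchange factor that reloads eIF2 with GTP (Eif2b1 to Eif2b5, 0.22 to 0.58), the kinase Eif2ak3 (0.83) and the phosphatase subunit Ppp1r15a (0.96). These were named after their values were seen, and with the authors' values 7 of the 12 were higher. After fasting 4 of the 12 were higher and 1 lower, the interferon-induced kinase Eif2ak2 (-0.58 ± 0.12). Among all genes 49.3% were called in that contrast, 21.3% higher and 28.1% lower. The interaction with CL316243 was called for 9 of 12, all positive, against 6.39% of all genes.

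Of 28 genes of the wider ATF4 list tested, 15 were higher and 2 lower in AAKO after fasting (median 0.69), and 9 higher and 2 lower after CL316243 (median 0.30). The shares of all genes were 21.3% higher and 28.1% lower after fasting, and 13.5% and 11.3% after CL316243. Atf4 itself was higher in both (0.40 ± 0.10 and 0.82 ± 0.10), as were Chac1, which degrades glutathione (3.81 ± 0.50 and 1.41 ± 0.50), and Ddit4, an inhibitor of mTORC1 signalling (4.40 ± 0.47 and 1.41 ± 0.48). The rest did not move as 1 block. Ddit3, which encodes the factor CHOP, was higher after CL316243 (0.95 ± 0.17) and not called after fasting (-0.16). Sesn2, a leucine sensor, was higher after fasting (1.20 ± 0.12) and not called after CL316243 (-0.18). Psat1, an enzyme of serine synthesis, was higher after fasting (0.97 ± 0.29) and lower after CL316243 (-0.82 ± 0.29). Asns, which makes asparagine, was higher after fasting (0.92 ± 0.37) and not called after CL316243 (0.42), and Trib3 was called in neither (0.43 and -0.38).

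**Figure D5:**
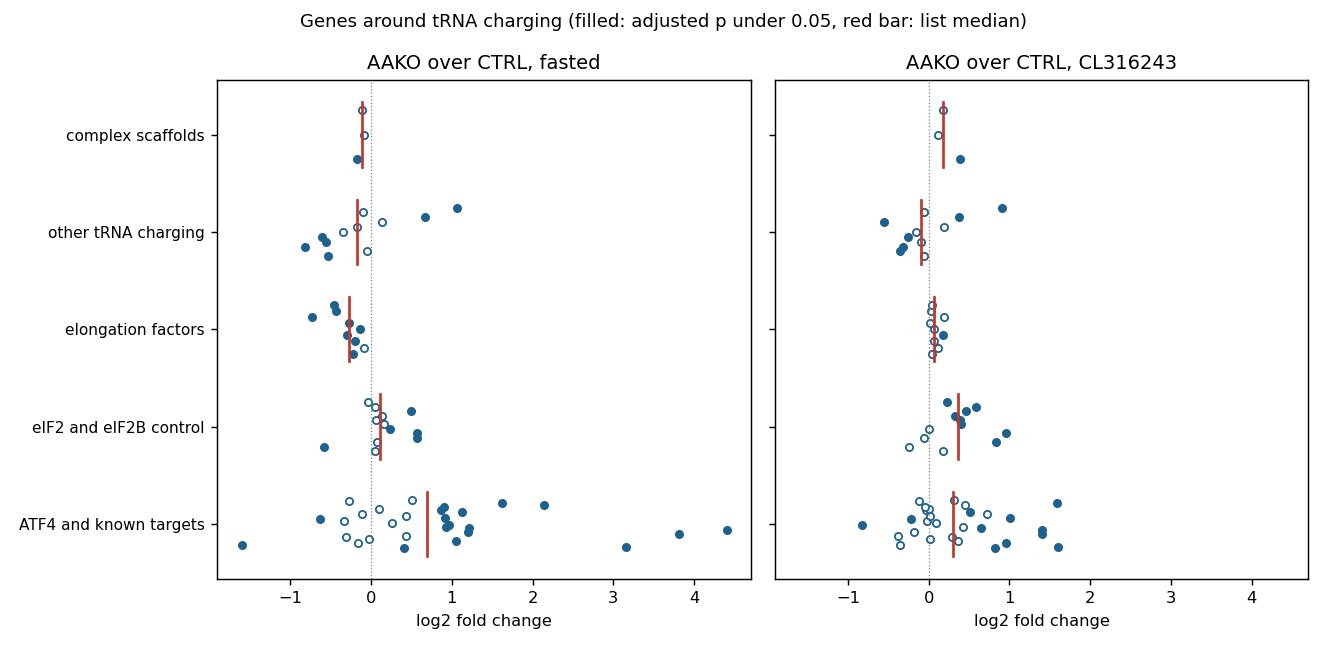
Log2 fold change of AAKO over CTRL liver for genes around tRNA charging, by list, in fasted (left) and CL316243-treated (right) mice; filled points passed an adjusted p of 0.05 and the red bar is the list's median. Elongation factors lie below 0 after fasting (median -0.27), and the eIF2 genes lie mostly above 0 after CL316243 (median 0.36).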

How the data were processed

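Liver RNA (200 ng per sample) of 36 mice was measured on 36 one-colour Agilent arrays (design 074809), 1 per mouse. The deposited files give, per the file headers, processed signal intensity (background-subtracted by Feature Extraction 10.10.1.1), mean and background signal intensity, and other marks for outlier, saturated and well-above-background spots. The authors also deposited a table of log2 values for 36898 probes, with a normalization not given in the sources used here. Sorted values were identical (largest difference 0) between the 6 columns of a group and differed between groups (medians 6.88 to 7.01), so these values were equalized within each group separately, and shifts between groups in them depend on that. Each of its columns correlated best with the array of the same name (lowest r 1.00). The probe coordinates in the files are on mm9.

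Outlier spots were dropped (0.127%), none were saturated, log2 intensity was set relative to each array's 75th percentile, spots of a probe were averaged, and the probe with the highest mean stood for its gene. A gene was tested if well above background on 5 of 6 arrays in at least 1 group. limma 3.58.1 (R 4.3.3) fitted 6 group means and wash batch (2 batches, recorded in the labels), two-sided, with Benjamini-Hochberg adjustment over 24102 genes and a threshold of 0.05. The method was tested on simulated data. Alternatives were other scalings, normexp with offset 50, the authors' table, filters, averaging of probes, batch and slide terms, and leaving out each array.

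Members and gene lists were chosen with earlier results of these data known. Genes named for a contrast were up to 2 with the largest rise and 2 with the largest fall among called members. For the genotypes after fasting, the genotypes after CL316243, and fasted against CL316243 in CTRL mice, they were instead those with the largest changes of either sign. The cell type marker lists were hepatocyte, macrophage and Kupffer cell, neutrophil, endothelial, stellate cell, cholangiocyte, lymphocyte, red cell and adipocyte genes. Replicate numbers did not pair the arrays: same-numbered arrays had a median correlation of 0.00 over 90 pairs. Since separate litters are not stated, p-values measure the spread between these mice only. The number of arrays and the background limit precision. The values of 1 gene of the wider lists are not reported here.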

Additional observations from a re-analysis of the deposited data

Results flagged for a closer look

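The groups of 6 examined numbered 108, for 16 named members and for the cytosolic and mitochondrial medians of each array. Chance gives about 1 group in 20. Fewer were found: 3 arrays lay far from the rest of their group. They were CTRL fed replicate 1 for Nars2 (-0.076, next -0.42), CTRL fed replicate 4 for Vars2 (-0.82, next -0.99), and AAKO fasted replicate 3 for Cars (3.06, next 2.47).

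The genotype difference changed from the fed to the fasted state for 16 members by the interaction term, against 33.9% of all genes. Mars2 (1.64), Eprs (1.01), Wars2 (-1.01) and Dars (-0.96) led these. From the fed to the CL316243 state it changed for 11 members, against 10.9% of all genes, led by Wars (0.97) and Rars (0.82). Between the fasted and CL316243 states it differed for 22 members, against 32.3% of all genes. Lars (-1.20), Cars2 (-1.10), Mars2 (1.13) and Ears2 (0.49) led there.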

How the results depend on the processing

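The 247 called values followed here belong to members over the 12 contrasts and, in some of these, to named genes outside the synthetases. Of the 247, 0 lost their call with slide as a random block, 2 with normexp, 9 with quantile normalization and 13 with slide as a fixed factor. With no filter 14 lost it, with median scaling 15, with only the groups compared 19 and with the authors' values 19. None of these changed sign. Within wash batch 1 alone 95 lost their call and within wash batch 2 alone 98, with fewer arrays. Averaging all probes of a gene ended 22 calls and reversed 7: Aars (0.43) and Eprs (0.20) for fasted against fed CTRL, Aars (0.20), Farsa (0.032) and Ears2 (-0.11) for fasted against fed AAKO, and Aars for fasted against CL316243 in CTRL (0.39) and AAKO (0.060), where the probes disagree.

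It also moved the cytosolic median to -0.050 for AAKO against CTRL fasted, -0.048 and -0.48 for fasted against CL316243 in CTRL and AAKO, and -0.041 for the fasting interaction, and the mitochondrial median of the CL316243 interaction to 0.0071. For fasted against fed AAKO, the cytosolic median was -0.072 with quantile normalization and -0.058 with the authors' values, and the mitochondrial -0.34. For fasted against CL316243 in AAKO, the cytosolic median was -0.53 and -0.47 and the mitochondrial -0.48 with normexp and -0.41 with the authors' values, which put the mitochondrial difference of fasted and CL316243 genotype effects at -0.19. The cause was not tested.

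Each wash batch alone holds fewer arrays. Within batch 1 the members called were 8 for AAKO against CTRL after CL316243, 8 for fasted against fed CTRL, 1 for CL316243 against fed CTRL, 12 for fasted against CL316243 CTRL, 8 for the fasting interaction, 2 for the CL316243 interaction and 14 for the difference between challenges. The mitochondrial median was -0.36 for the fasted genotypes and -0.025 for the CL316243 interaction. Within batch 2 the counts were 11 for the fasted genotypes (32.2%) and 6 for those given CL316243 (6.54%). For CL316243 against fed CTRL and AAKO they were 2 (6.62%) and 9 (9.44%). The fasting and CL316243 interactions gave 6 (12.9%) and 3 (1.97%), and the difference between challenges 8 (12.8%). The mitochondrial medians there were -0.14, 0.073 and 0.17 for the fasted genotypes, those given CL316243 and CL316243 against fed AAKO, and -0.052, 0.21 and -0.14 for the interactions and the difference.

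Leaving out 1 array gave 5 to 9 called members for CL316243 against fed CTRL, 22 to 24 for the fasted genotypes and 13 to 16 for those given CL316243. The mitochondrial median for fasted against fed AAKO ran from -0.47 to -0.35. With the replicate number as a block, the counts were 23 for the fasted genotypes, 15 for those given CL316243 and 10 for the CL316243 interaction. In that fit 49%, 24.7% and 10.8% of all genes were called. Of 36 arrays, 6 lay closest to one of their own number.

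The share called higher among all called genes moved from 48.2% to 37.7% (fasted against fed CTRL) and from 52.2% to 39.0% (fasted against CL316243 CTRL) with median scaling. With the authors' values it moved from 43.5% to 58.0% (fasted against CL316243 AAKO; 31.4% with normexp), from 58.5% to 44.2% (CL316243 interaction) and from 39.1% to 54.8% (difference between challenges). Mars2 lies near the background, so its level is the least precise.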

Other observations

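A few genes of tRNA metabolism outside the synthetases were lower in AAKO mice after CL316243, where 12 cytosolic members were higher. Pstk, which prepares the tRNA that carries selenocysteine, was lower in AAKO than CTRL mice (-0.55), as was Tarsl2, a second cytosolic threonine enzyme (-0.36). Qrsl1 (-0.32) and Gatc (-0.26) were lower as well. These 4 genes were chosen after their values were seen.

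Markers of cells other than hepatocytes, neutrophils and macrophages gave these calls between the genotypes. In fasted mice 2 of 5 endothelial and 2 of 5 stellate cell genes were higher, 2 of 5 cholangiocyte, 1 of 5 lymphocyte and 1 of 4 red cell genes were lower, and 1 adipocyte gene went each way. After CL316243, 1 of 5 endothelial genes was higher and 1 of 5 cholangiocyte genes lower. Among all genes tested, 49.3% were called between the fasted genotypes (21.3% higher and 28.1% lower) and 24.8% after CL316243.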
